A study of Mus musculus with 18 samples.

Results

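The ELOVL genes encode the fatty acid elongases, the enzymes that lengthen long-chain fatty acids, and their mRNA levels were compared across 3 mouse fat depots and between Gm15551 wild type and knockout mice. The members were chosen by name: every row of the polyA RNA-seq count table whose gene symbol was Elovl1, Elovl2, Elovl3, Elovl4, Elovl5, Elovl6 or Elovl7 was used, which gave 7 of 54347 rows. The table held 18 libraries from 6 mice, 3 wild type (wt) and 3 knockout (ko), with interscapular brown (iBAT), inguinal white (iWAT) and epididymal white adipose tissue (eWAT) taken from each mouse. All mice were 12 weeks old, carried the strain label C57BL/6N-ΔGm15551 and, per the methods of the study, were fed chow. The results of the study, in contrast, mention both high-fat and control diet where they describe the transcriptomes of these depots. The ko mice carried a CRISPR/Cas9 deletion that removes exon 1 of the long non-coding RNA gene Gm15551, and the wt mice were their litter mates. The study describes its knockout mice as homozygous, and all ko mice carry the same deletion, so the genotype comparison covers that deletion only. The library totals ran from 14997901 to 34389586 estimated counts, and levels are given as CPM (read counts of a gene relative to the total of its library) after scaling by the trimmed mean of M-values.

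The library labels were checked first. Gm15551 ranged from 2.59 to 4.21 CPM in wt iBAT, from 1.95 to 10.3 CPM in wt iWAT and from 7.96 to 11.7 CPM in wt eWAT, and it had between 0 and 4 counts in each of the 9 ko libraries. Ucp1, the uncoupling protein of brown adipocytes, stood at 3422 to 7994 CPM in iBAT and at 55.3 CPM or less elsewhere, and Wt1, a factor of visceral fat, had no count in iBAT and 5.05 to 14.4 CPM in eWAT. A few libraries held RNA of neighbouring tissue. The summed level of 10 lymph node genes was 1200 CPM in iWAT wt replicate 3 and 516 CPM in iWAT ko replicate 2, against at most 20.9 CPM in the other iWAT libraries. The sum of 11 skeletal muscle genes was 4588 CPM in iWAT ko replicate 1, against at most 8.01 CPM in the other iWAT libraries. The sum of 10 epididymis genes was 5744 CPM in eWAT ko replicate 3 and 39.1 CPM in eWAT wt replicate 1, against at most 2.81 CPM in the other eWAT libraries, with 1 of the 10 genes at 0 in eWAT ko replicate 3. These are bulk tissues, so fewer cells of a type and less RNA per cell cannot be told apart in any value that follows.

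Fatty acid elongation takes place in the membrane of the endoplasmic reticulum. In each round an ELOVL enzyme condenses an activated fatty acid with malonyl-CoA, and the product is then reduced, dehydrated and reduced again by Hsd17b12, an Hacd enzyme and Tecr. The members differ in the fatty acids they accept. Elovl6 extends palmitate and other products of de novo lipogenesis, Elovl3 makes very long saturated and monounsaturated fatty acids and is known from cold-exposed brown fat, Elovl1 makes the very long acyl chains of sphingolipids, and Elovl7 also prefers saturated substrates. Elovl5 and Elovl2 extend polyunsaturated fatty acids, and Elovl4 makes the longest chains, in retina, skin, brain and testis.

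The members share a catalytic histidine box, in which a histidine is followed, after a pair of other residues, by a pair of neighbouring histidines. The coding stretch of 45 bases around it is shown for each member because it groups the family by sequence in a way that can be set beside the tissue pattern. The sequences were read from the GENCODE M21 transcript with the longest complete coding sequence, are written 5′ to 3′, and have the histidine codons of the box in capitals.
Elovl1: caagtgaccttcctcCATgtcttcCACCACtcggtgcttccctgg
Elovl2: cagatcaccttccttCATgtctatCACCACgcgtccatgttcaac
Elovl3: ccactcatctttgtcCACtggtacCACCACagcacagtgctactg
Elovl4: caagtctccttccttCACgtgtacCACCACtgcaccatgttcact
Elovl5: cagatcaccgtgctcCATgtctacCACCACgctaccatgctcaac
Elovl6: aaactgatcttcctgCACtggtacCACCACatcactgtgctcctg
Elovl7: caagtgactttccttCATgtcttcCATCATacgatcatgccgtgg
Over these 45 bases Elovl3 and Elovl6 were identical at 36 positions, Elovl2 and Elovl5 at 38, and Elovl1 and Elovl7 at 35, while the other 18 pairs shared between 21 and 33 positions. In Elovl3 and Elovl6 alone the codons tgg and tac stand between the histidines. The box of Elovl6 lies in exon 4 of 4 of its transcript, at chr3:129633092-129633136 on the plus strand (GRCm38), and that of Elovl3 in exon 4 of 4, at chr19:46134407-46134451 on the plus strand. The boxes of Elovl5 (chr9:77976835-77976879, plus strand, exon 5 of 8) and Elovl1 (chr4:118431439-118431483, plus strand, exon 6 of 9) lie in inner exons.

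Elovl6 was the most abundant member in iBAT and stepped down by similar folds from iBAT to iWAT and from iWAT to eWAT. The gene lies at chr3:129532355-129638495 on the plus strand (GRCm38). In iBAT it stood at 1361, 1158 and 1013 CPM in wt replicates 1 to 3 and at 1716, 1209 and 1045 CPM in the ko replicates. The iWAT libraries gave 180, 333 and 32.0 CPM in wt and 258, 206 and 208 CPM in ko. In eWAT the values were 25.1, 30.8 and 23.0 CPM in wt and 52.9, 22 and 30.5 CPM in ko. For 34.6% of all genes tested the iBAT and iWAT libraries did not overlap, in either direction, and for 37.3% the iBAT and eWAT libraries did not. For Elovl6 every iBAT library lay above every white fat library, and 5 of the 6 iWAT libraries lay above every eWAT library. The exception was iWAT wt replicate 3, the library with the most lymph node RNA, at 32.0 CPM; its Adipoq level, the adipocyte gene for adiponectin, was 922 CPM against 1258 to 2224 CPM in the other iWAT libraries, and per 100 CPM of Adipoq it held 3.47 CPM of Elovl6 against 8.08 to 16.4 CPM in the others. The part of lymph node tissue in that value was not tested. By edgeR's quasi-likelihood test with Benjamini-Hochberg adjustment over 18728 genes, Elovl6 was higher in iBAT than in iWAT by 2.63 ± 0.38 on the log2 scale (SE; 6.19-fold; adjusted p = 2.1e-05) and higher than in eWAT by 5.36 ± 0.43 (41.1-fold; adjusted p = 2.22e-08). It was also higher in iWAT than in eWAT, by 2.73 ± 0.38 on the log2 scale (6.63-fold; adjusted p = 0.000232). With wt libraries alone the last call was lost, at a log2 fold change of 2.79 and adjusted p = 0.0992.

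Elovl3 was high in iBAT and low in both white depots, and it varied more between iBAT libraries than any other abundant member. The gene lies at chr19:46131897-46135694 on the plus strand. The iBAT libraries gave 252, 91.6 and 46.8 CPM in wt replicates 1 to 3 and 261, 151 and 35.5 CPM in ko, a spread of 7.34-fold from lowest to highest, against 1.69-fold for Elovl6, 1.30-fold for Elovl5 and 1.13-fold for Elovl1. In iWAT the gene had 7, 107 and 4 counts in wt and 16, 55 and 32 counts in ko, or 0.132 to 3.70 CPM. In eWAT it had 2, 2 and 2 counts in wt and 2, 4 and 0 counts in ko, 12 counts in all; the 0 in eWAT ko replicate 3 allows up to 0.149 CPM. The iBAT libraries lay far above all others. Over all genes tested, 34.6% did not overlap between iBAT and iWAT, 37.3% between iBAT and eWAT and 4.62% between iWAT and eWAT. The measured iWAT and eWAT values did not overlap, but the limit of 0.149 CPM lies above the lowest iWAT library (0.132 CPM, 4 counts), so those ranges are not shown to be separate at this depth. The summed counts put Elovl3 1688-fold higher in iBAT than in eWAT, with an exact 95% interval of 966 to 3268 that covers counting error only, and 16.4-fold higher in iWAT than in eWAT (9.20 to 32.2). The fitted log2 fold changes were 6.68 ± 0.73 for iBAT over iWAT (adjusted p = 1.16e-06), 10.67 ± 0.97 for iBAT over eWAT (adjusted p = 9.36e-08) and 3.99 ± 1.04 for iWAT over eWAT (adjusted p = 0.023), and at so few eWAT counts the latter values depend on the prior count of the fit. The iWAT to eWAT call was lost in 9 settings, with log2 fold changes that stayed between 3.12 and 4.10. These were without iWAT wt replicate 2 (log2 fold change 3.22, adjusted p = 0.0543), without iWAT ko replicate 2 (3.75, adjusted p = 0.0572) and without eWAT ko replicate 3 (3.77, adjusted p = 0.0502), and with wt libraries alone (3.75, adjusted p = 0.357) or by limma voom (3.12, adjusted p = 0.356). The others were without mouse wt replicate 2 (3.33, adjusted p = 0.0946) or ko replicate 2 (3.86, adjusted p = 0.109), without both eWAT libraries with most epididymis RNA (3.77, adjusted p = 0.0895) and without the 4 libraries with most RNA of other tissue (4.10, adjusted p = 0.0672). Without iWAT wt replicate 2 the iBAT to iWAT log2 fold change was 7.56.

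**Figure D1:**
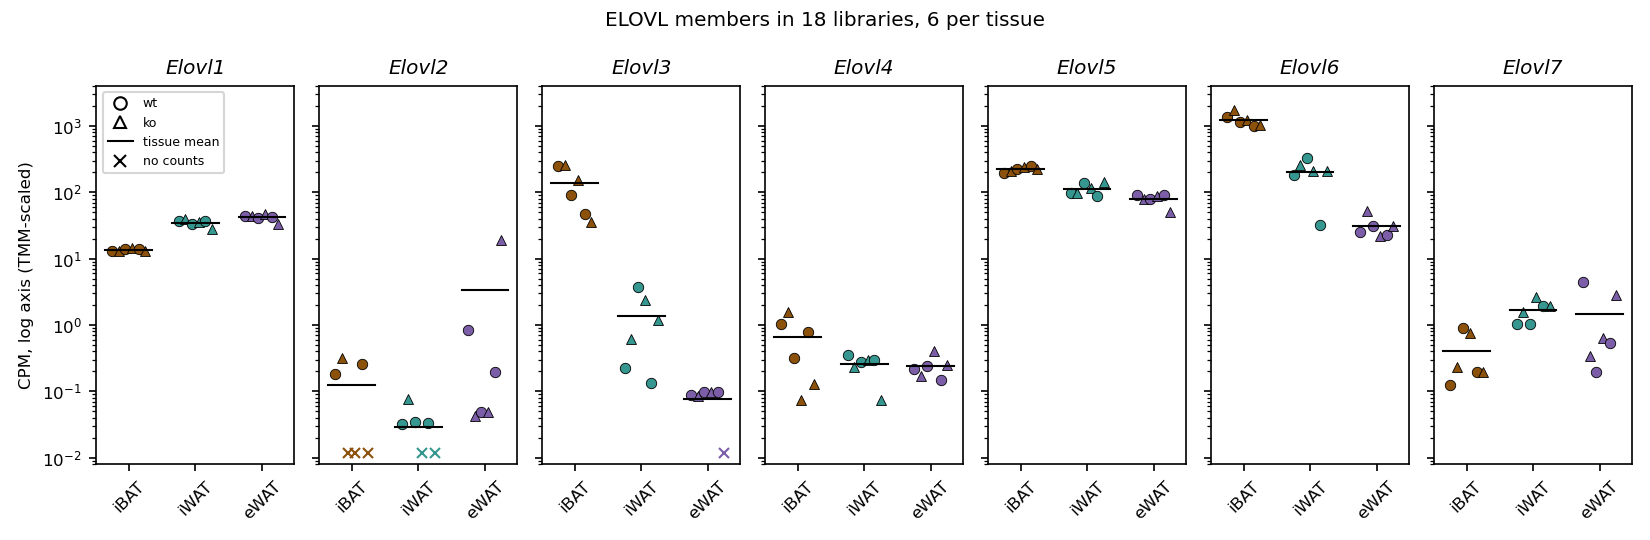
CPM of the 7 ELOVL members on a log axis in 18 libraries, 6 per depot, with circles for wt, triangles for ko, a line at the depot mean and a cross at the bottom for a library with no count. Elovl6 and Elovl3 step down from iBAT to iWAT to eWAT, Elovl1 is lowest in iBAT, and Elovl2, Elovl4 and Elovl7 stay near or below a few CPM except for Elovl2 in eWAT ko replicate 3 at 19.2 CPM.

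Elovl5, which extends polyunsaturated acids, followed the same order of depots with smaller steps. Its gene lies at chr9:77917364-77984519 on the plus strand. In iBAT its level was 194, 225 and 252 CPM in wt and 207, 243 and 222 CPM in ko. In iWAT it was 96.1, 140 and 87.2 CPM in wt and 97.1, 115 and 142 CPM in ko, and in eWAT 92.0, 78.7 and 91.8 CPM in wt and 78.3, 88.2 and 50.1 CPM in ko. The iBAT libraries lay above all white fat libraries, whereas the iWAT and eWAT ranges overlapped. A lack of overlap held for 34.6% of all genes tested between iBAT and iWAT and for 37.3% between iBAT and eWAT. Elovl5 was higher in iBAT than in iWAT by 0.99 ± 0.15 on the log2 scale (1.98-fold; adjusted p = 4.65e-05) and higher than in eWAT by 1.49 ± 0.16 (2.81-fold; adjusted p = 4.69e-07). The scaling factors given above differ between iBAT and white fat in the direction of both steps, and unscaled totals were not tested. The step from iWAT to eWAT, 0.50 ± 0.15 on the log2 scale, passed narrowly (adjusted p = 0.046). When the mouse entered the fit as a block the step was the same size, 0.50, and did not pass (adjusted p = 0.079). It did not pass in 26 settings in all, and was smallest with wt libraries alone, at 0.30 (adjusted p = 0.51).

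Elovl1 ran the other way, and within each depot the ratio of its highest to its lowest library was smaller than that of any other member. The gene lies at chr4:118428093-118432953 on the plus strand. Its iBAT level was 13.1, 14.2 and 13.8 CPM in wt and 13.2, 14.7 and 13.1 CPM in ko, 13.7 ± 0.67 CPM in all (SD, n = 6). In iWAT it was 37.0, 33.8 and 36.7 CPM in wt and 39.9, 35.4 and 27.7 CPM in ko, and in eWAT 43.8, 40.7 and 42.0 CPM in wt and 44.2, 46.6 and 33.4 CPM in ko. No iBAT library reached the lowest white fat library, beside 34.6% of all genes tested without overlap between iBAT and iWAT and 37.3% between iBAT and eWAT. Elovl1 was lower in iBAT than in iWAT by a log2 fold change of -1.36 ± 0.10 (2.56-fold; adjusted p = 9.11e-09) and lower than in eWAT by -1.61 ± 0.10 (3.05-fold; adjusted p = 9.64e-10). Between iWAT and eWAT the log2 fold change was -0.25 ± 0.09, which did not pass in the fit without a block (adjusted p = 0.0956) and passed by a small margin once the mouse was a block (adjusted p = 0.0499). It also passed without eWAT ko replicate 3 (-0.31, adjusted p = 0.0277), without mouse ko replicate 3 (-0.25, adjusted p = 0.0347) and without the 4 libraries holding most RNA of lymph node, muscle or epididymis (-0.41, adjusted p = 0.0135).

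Promoter windows of 300 bases were available from RefSeq (GRCm38.p6) for 6 of the 7 members, with 8 start sites in all; Elovl3 had no entry. Those of Elovl6 and Elovl5, which were both highest in iBAT, and of Elovl1, which was lowest there, are shown 5′ to 3′ on the gene's strand, chr3:129532136-129532435, chr9:77917115-77917414 and chr4:118427843-118428142. Capitals mark matches on either strand to the CCAAT box, to the GC box with the letters GGGCGG, to the E-box with the letters CACGTG, or to a sterol response element with the letters TCACNCCAC. Neighbouring matches may overlap.
Elovl6: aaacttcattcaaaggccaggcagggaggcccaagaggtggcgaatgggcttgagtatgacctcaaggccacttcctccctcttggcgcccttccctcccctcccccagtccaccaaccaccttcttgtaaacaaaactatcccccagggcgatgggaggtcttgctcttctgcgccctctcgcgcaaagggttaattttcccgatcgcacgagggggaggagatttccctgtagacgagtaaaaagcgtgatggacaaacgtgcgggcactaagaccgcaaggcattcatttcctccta
Elovl5: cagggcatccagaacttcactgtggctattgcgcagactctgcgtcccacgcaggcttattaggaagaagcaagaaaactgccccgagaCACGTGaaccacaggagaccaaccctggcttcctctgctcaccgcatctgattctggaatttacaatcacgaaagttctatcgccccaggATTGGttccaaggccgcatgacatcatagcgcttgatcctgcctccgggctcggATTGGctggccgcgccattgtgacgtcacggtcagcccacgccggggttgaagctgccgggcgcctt
Elovl1: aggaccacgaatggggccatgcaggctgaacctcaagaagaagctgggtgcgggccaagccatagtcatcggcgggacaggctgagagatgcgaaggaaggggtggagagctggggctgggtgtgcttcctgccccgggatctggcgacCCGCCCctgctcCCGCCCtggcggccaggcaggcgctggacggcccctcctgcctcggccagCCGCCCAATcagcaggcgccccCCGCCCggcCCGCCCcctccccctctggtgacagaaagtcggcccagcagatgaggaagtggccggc
The Elovl6 window held none of the 4 motifs, the Elovl5 window held the CCAAT box 2 times and the E-box 1 time, and the Elovl1 window held the GC box 5 times and the CCAAT box 1 time, with 1 pair overlapping. RefSeq gives a further Elovl1 start, whose window (chr4:118429451-118429750) held the GC box 2 times and no CCAAT box. Of 32851 promoter windows of this length, 37.4% held the CCAAT box, 35.7% the GC box, 7.15% the E-box and 1.24% the sterol element. A match describes the letters of the window only.

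Elovl7, Elovl4 and Elovl2 were low in most libraries, and the eWAT values of Elovl7 and Elovl2 were highest in the libraries that held RNA of the epididymis. Elovl7 (chr13:108214404-108285683, plus strand) had 2 to 14 counts per library in iBAT (0.124 to 0.907 CPM) and 30 to 62 counts in iWAT (1.04 to 2.65 CPM). In eWAT it stood at 4.40 CPM in wt replicate 1 and 2.82 CPM in ko replicate 3, the libraries with the most epididymis RNA, and at 0.194 to 0.631 CPM in the other 4 libraries. Elovl7 was lower in iBAT than in iWAT by -2.06 ± 0.73 on the log2 scale (adjusted p = 0.024), a call lost with wt libraries alone (-1.72, adjusted p = 0.258) and without the 4 libraries that held most RNA of lymph node, muscle or epididymis (-1.73, adjusted p = 0.12). It was also lost in 7 of the 24 settings that left out 1 mouse or library, namely iBAT wt replicate 1 or 3, iBAT ko replicate 1 or 3, or mouse wt replicate 3, ko replicate 1 or ko replicate 3 (adjusted p from 0.0515 to 0.0742). The log2 fold change over all these left-out settings ran from -2.59 to -1.87. The call of a lower level in iBAT than in eWAT, -1.88 ± 0.72 on the log2 scale (adjusted p = 0.0364), was lost in 10 of the 24 left-out settings and in 6 of 10 others. The left-out log2 fold changes ran from -2.55 to -0.82. With the mouse as a block the call was lost (adjusted p = 0.153), and without eWAT wt replicate 1 the log2 fold change was -0.93 (adjusted p = 0.247). Without both epididymis-bearing eWAT libraries that log2 fold change was -0.09 (adjusted p = 0.906), and the difference of iWAT from eWAT, 0.18 ± 0.67 with all libraries, became 1.94 (adjusted p = 0.0366). Among the iWAT libraries Elovl7 was highest in wt replicate 3, ko replicate 2 and ko replicate 3, at 1.91 to 2.65 CPM, and these were the only iWAT libraries with any count of the epithelial keratin Krt5, at 2.61, 5.22 and 6.93 CPM; the part of epithelial tissue in Elovl7 was not tested.

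Elovl2 did not pass the filter on low counts and was not tested. The gene lies at chr13:41182381-41220405 on the minus strand. It had between 0 and 4 counts in every iBAT and iWAT library. In eWAT it had 19, 1 and 4 counts in wt and 1, 2 and 388 counts in ko, the last equal to 19.2 CPM. The library with 388 counts was eWAT ko replicate 3, which also held Crisp1, a secreted protein of the epididymis, at 2987 CPM, and the library with 19 counts was eWAT wt replicate 1, with Crisp1 at 3.91 CPM. The level of Elovl2 in eWAT ko replicate 3 was 91.2-fold that of the other 5 eWAT libraries summed, with an exact 95% counting interval of 61.7 to 140. The same library held Fads2, the desaturase that acts on the same polyunsaturated chains, at 331 CPM against 17.5 to 60.1 CPM in the other eWAT libraries, and it had the lowest Elovl5 and Elovl1 of the 6. Its adipocyte genes were also lowest, with 5 markers summing to 7849 CPM against 12199 to 18331 CPM, and per 100 CPM of Adipoq its Elovl1 was the highest of the 6 eWAT libraries (3.23 CPM) and its Elovl5 the second highest (4.84 CPM). It stood apart as well for 9 testis genes, which summed to 125 CPM against at most 9.27 CPM, and for 7 skin genes, at 81.2 CPM against at most 11.8 CPM. The part of epididymal, testicular or epithelial tissue in these values was not tested. Elovl4 (chr9:83778692-83806277, minus strand) had 1 to 20 counts in every library, 0.0751 to 1.57 CPM in iBAT against 0.0734 to 0.357 CPM in iWAT and 0.148 to 0.412 CPM in eWAT, and its log2 fold changes of iBAT over iWAT (1.33 ± 0.57, adjusted p = 0.0579) and over eWAT (1.37 ± 0.58, adjusted p = 0.0548) did not pass. Both passed by DESeq2 (adjusted p = 0.0478 and 0.0433) and without iBAT ko replicate 2 (adjusted p = 0.0236 and 0.0207) or iBAT ko replicate 3 (0.0307 and 0.0271). Without iBAT ko replicate 1, the library with 20 counts, they were 0.70 (adjusted p = 0.322) and 0.65 (adjusted p = 0.379), and over all single mice or libraries left out they ran from 0.70 to 1.63 and from 0.59 to 1.87. In all, the difference from iWAT passed in 3 of 24 left-out settings and 1 other, and that from eWAT in 6 of 24 and 1 other.

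**Figure D2:**
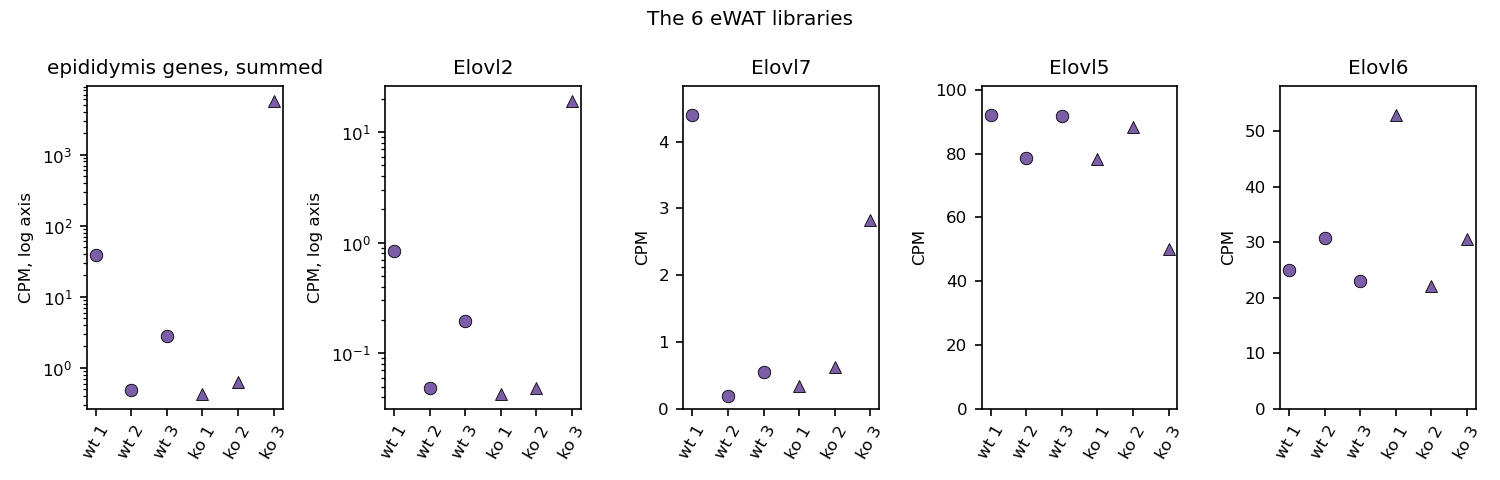
The 6 eWAT libraries, with circles for wt and triangles for ko: the summed CPM of 10 epididymis genes and the CPM of Elovl2 on log axes, and the CPM of Elovl7, Elovl5 and Elovl6 on linear axes from 0. Elovl2 and Elovl7 are highest in wt replicate 1 and ko replicate 3, where the epididymis genes are highest, Elovl5 is lowest in ko replicate 3, and Elovl6 is highest in ko replicate 1 at 52.9 CPM.

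Counted together, 3 of the 6 members tested (Elovl3, Elovl5 and Elovl6) were higher in iBAT than in iWAT and 2 (Elovl1 and Elovl7) were lower, against 24.0% of all genes tested called higher, 30.3% called lower and 54.3% called in all. Over eWAT the same 3 were higher in iBAT and the same 2 lower, against 24.4% and 30.2% of all genes (54.6% in all). The Elovl7 call over eWAT was lost in 10 of 24 left-out settings and 6 of 10 others. The mouse block was among these, as was the removal of both epididymis-bearing eWAT libraries, which left a log2 fold change of -0.09. In iWAT against eWAT, Elovl3, Elovl5 and Elovl6 were higher and no member was lower, against 5.70% and 4.50% of all genes (10.2% in all); with the mouse block Elovl5 was no longer called and Elovl1 was called lower. The median log2 fold change of the 6 members was 1.16, 1.43 and 0.34 in these comparisons, beside -0.14, -0.17 and 0.01 over all genes. A member high in a single depot passes the filter on low counts through that depot, so these counts describe the members only. The comparisons share libraries and are not independent of each other. Only 17 of 18728 genes had a larger fitted log2 fold change of iBAT over iWAT than Elovl3, and 328 than Elovl6; over eWAT these numbers were 2 and 90. The eWAT level of Elovl3 rests on 12 counts in all, so its rank there depends on the prior count of the fit.

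**Figure D3:**
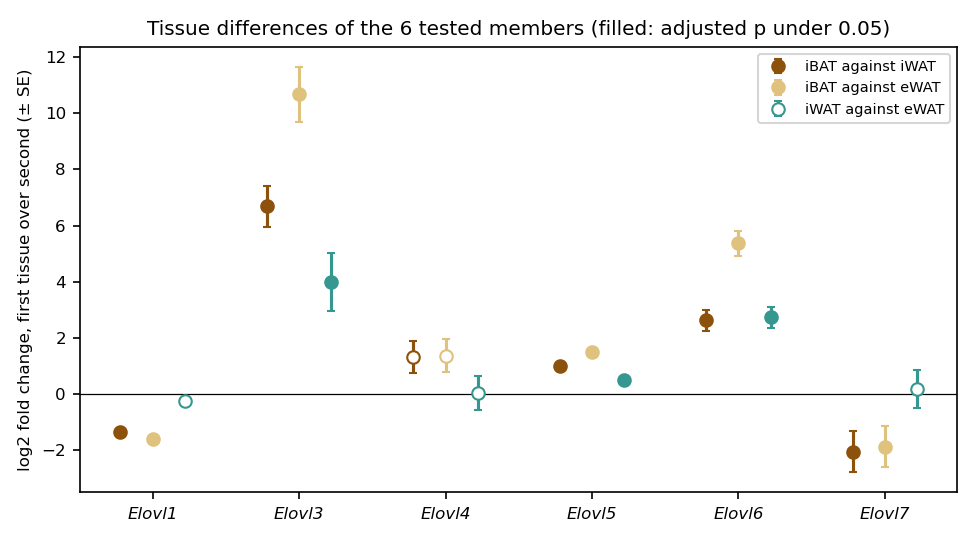
Fitted log2 fold change of the first depot over the second, with its standard error, for the 6 tested members in each of the 3 depot comparisons; filled points had an adjusted p under 0.05. Elovl3 and Elovl6 lie far above 0 in both comparisons with iBAT, Elovl5 lies between 0.50 and 1.49, and Elovl1 and Elovl7 lie below 0 in both.

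To compare members with each other, the CPM were divided by the length of each gene's exons in kb. Summed over the family this level was 334 ± 84.3 CPM per kb in iBAT, 77.6 ± 20.5 in iWAT and 44.1 ± 4.0 in eWAT (SD, n = 6 each). In iBAT the order was Elovl6 (194 ± 40.4 CPM per kb), Elovl3 (70.7 ± 50.3), Elovl5 (63.6 ± 6.17) and Elovl1 (5.02 ± 0.25), with Elovl4, Elovl7 and Elovl2 below 1 CPM per kb. Elovl3 and Elovl5 were not separated there, since Elovl3 was above Elovl5 in 3 of the 6 libraries. In iWAT Elovl5 (32.0 ± 6.67 CPM per kb) and Elovl6 (31.5 ± 15.5) were level, with Elovl6 above in 3 of the 6 libraries, and Elovl1 followed at 12.9 ± 1.52. In eWAT Elovl5 led at 22.7 ± 4.49 CPM per kb, above Elovl1 at 15.3 ± 1.68 in 6 of 6 libraries, and Elovl6 followed at 4.78 ± 1.78. Expressed as a share of the family, Elovl6 took 58.9 ± 4.46% in iBAT, 37.9 ± 13.7% in iWAT and 10.9 ± 3.91% in eWAT. Elovl1 took 1.58 ± 0.38%, 18 ± 6.95% and 34.7 ± 1.44%, and Elovl5 20.3 ± 6.06%, 42.6 ± 8.36% and 51.0 ± 6.94%. Elovl3 held 7.24 to 32.0% of the family in the iBAT libraries and at most 1.76% in any white fat library.

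**Figure D4:**
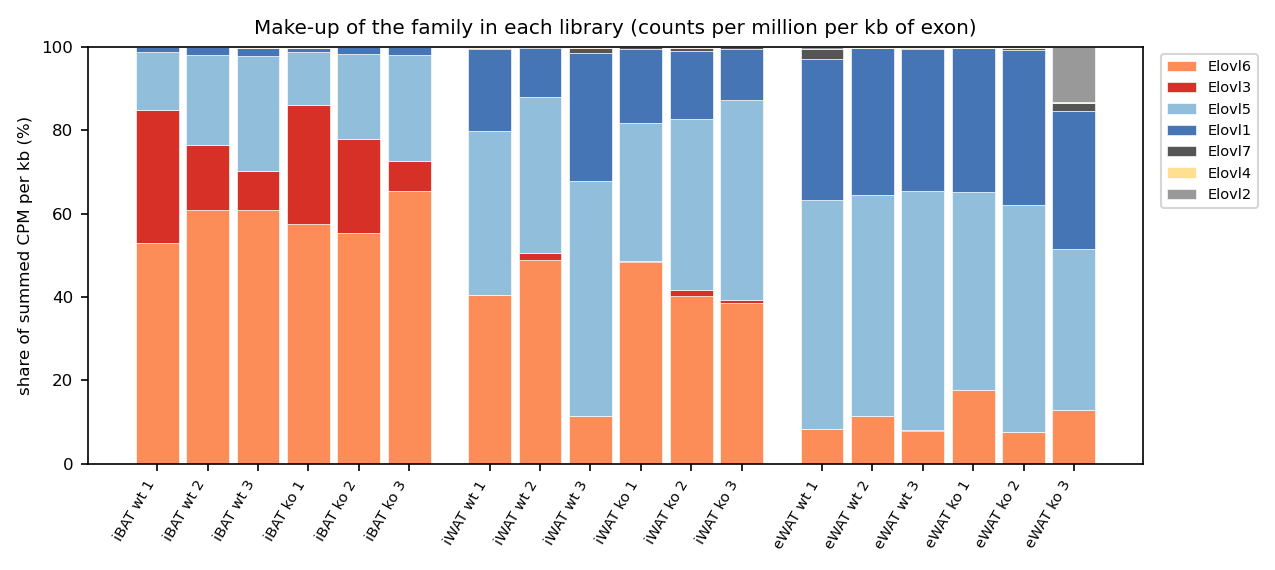
Share of each member in the family's summed CPM per kb of exon, as stacked bars to 100% for each of the 18 libraries, ordered by depot, genotype and replicate. Elovl6 and Elovl3 fill most of the iBAT bars, Elovl5 and Elovl1 most of the eWAT bars, and iWAT wt replicate 3 differs from the other iWAT bars with 11.4% Elovl6; the Elovl2 share of 13.2% in eWAT ko replicate 3 stands alone.

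The partners of the elongases were read from lists of pathway genes. Of the 6 tested enzymes that complete the cycle, Hsd17b12, the ketoacyl reductase, and Tecr, the enoyl reductase, were higher in iBAT than in iWAT, by 0.88 ± 0.24 and 0.98 ± 0.25 on the log2 scale (adjusted p = 0.00572 and 0.00286). Hacd4, a dehydratase, was lower by -2.46 ± 0.25 (adjusted p = 5.14e-07), and Hacd1, Hacd2 and Hacd3 did not pass, with log2 fold changes between -0.04 and 0.24. All 5 macrophage markers were lower in iBAT as well, summing to 51.3 to 133 CPM against 232 to 1437 CPM in iWAT and 133 to 512 CPM in eWAT. Within iWAT, Hacd4 was highest in ko replicate 2 and wt replicate 3, at 18.2 and 12.6 CPM against 5.32 to 10.1 CPM, the libraries with the most macrophage RNA, whereas in eWAT it was highest in the library with the least, ko replicate 3, at 15.9 CPM. The part of macrophages in Hacd4 was not tested. The 3 of 6 called compare with 54.3% of all genes. Against eWAT the same enzymes were called, beside 54.6% of all genes, at 1.77 ± 0.25 for Hsd17b12, 1.30 ± 0.25 for Tecr and -2.65 ± 0.25 for Hacd4. Of 7 genes of de novo lipogenesis and malonyl-CoA turnover, which bear on the substrates of Elovl6, 5 were higher in iBAT than in iWAT (24.0% of all genes) and 7 higher than in eWAT (24.4% of all genes), with a median log2 fold change of 1.86 and 3.29 beside -0.14 and -0.17 over all genes. Mlycd, which breaks malonyl-CoA down, was among those higher, at 1.68 ± 0.18 over iWAT, and Slc25a1 and Me1 did not pass against iWAT (0.77 ± 0.33 and 0.31 ± 0.36). Among them Acly, which makes cytosolic acetyl-CoA, had a mean of 5616 ± 1462 CPM over the 6 iBAT libraries, against 1488 ± 678 CPM over iWAT and 453 ± 154 CPM over eWAT (SD). Fasn, the fatty acid synthase, was higher in iBAT than in iWAT by 1.88 ± 0.49 on the log2 scale (adjusted p = 0.00365) and Acaca, an acetyl-CoA carboxylase, by 1.86 ± 0.36 (adjusted p = 0.000334).

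Of the 8 desaturases 1 was higher in iBAT than in iWAT and 3 were lower, against 24.0% and 30.3% of all genes, so that the share called was close to that of all genes. Scd1, which introduces the double bond into stearate, the product of Elovl6, was higher in iBAT than in iWAT by 1.47 ± 0.44 on the log2 scale (adjusted p = 0.00984). Fads1, which acts on the polyunsaturated chains that Elovl5 serves, was lower in iBAT by -1.90 ± 0.21 (adjusted p = 1.33e-06), as were Fads3 (-2.97 ± 0.35, adjusted p = 2.84e-06) and Fads6 (-2.40 ± 0.29, adjusted p = 2.89e-06). Of the 4 ceramide synthases tested, enzymes that join an acyl chain to a sphingoid base, 3 were lower in iBAT than in iWAT and 1 was higher, against 30.3% and 24.0% of all genes. Cers6 fell furthest, by -3.47 ± 0.33 on the log2 scale (adjusted p = 2.29e-07), while Cers2, the member of the 4 that prefers very long chains, was higher by 0.33 ± 0.12 (adjusted p = 0.0299). Of 7 genes for peroxisomal handling of very long chains, 5 were higher in iBAT than in iWAT, against 24.0% of all genes, led by the transporter Abcd3 at 2.21 ± 0.20, and Abcd2 was lower at -2.20 ± 0.27. Of 10 regulators of lipid genes 6 were higher in iBAT than in iWAT and 1 was lower, against 24.0% and 30.3% of all genes. Mlxipl, the carbohydrate response factor, was higher in iBAT than in iWAT by 1.90 ± 0.28 and Ppara, a fatty acid receptor, by 3.96 ± 0.44 on the log2 scale (adjusted p = 2.53e-05 and 1.35e-06). Rxra, a partner of nuclear receptors, was the member that was lower, with a log2 fold change of -0.79 ± 0.19 (adjusted p = 0.00217). Srebf1, the sterol regulatory factor of lipogenesis, had a log2 fold change of 0.10 ± 0.18 that did not pass (adjusted p = 0.688).

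Genes with the pattern most like that of each member were ranked by Pearson's r of log2 CPM over the 18 libraries, as a description. These libraries fall into 3 depots and share mice, so r was also taken after subtracting each depot's mean. Acly was nearest to Elovl6 over all libraries among 16127 genes compared (r = 0.987), followed by Otop1 and Mme, and it remained second after subtraction (r = 0.913), behind Tmem79 (r = 0.943). Fasn and Scd1 gave 0.792 and 0.833 with Elovl6 after subtraction. Ptpn4 was nearest to Elovl5 both over all libraries (r = 0.988) and after subtraction (r = 0.918). Elovl3 was nearest to Adprhl1, Acot11 and Pkm over all libraries (r = 0.984 to 0.986) and to Gpam, which starts glycerolipid synthesis, after subtraction (r = 0.850). Elovl1 was nearest to Anxa1 (r = 0.988) and, after subtraction, to Arf2 (r = 0.864). Between members, Elovl3 and Elovl6 gave r = 0.620 after subtraction, the highest of any pair of members, and Elovl1 and Elovl6 gave -0.151. Elovl4 and Elovl7 rest on few counts, and their nearest genes (Gpbp1, r = 0.796, and Kcnk5, r = 0.910, over all libraries) are given for completeness.

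Within iBAT, Elovl3 followed Ucp1 in rank. From the highest to the lowest library both genes ran ko replicate 1, wt replicate 1, ko replicate 2, wt replicate 2, wt replicate 3, ko replicate 3, an order shared by 178 of the 18728 genes tested (0.95%), among them Hsd17b12 and Acaca. The range was wider for Elovl3 (7.34-fold) than for Ucp1 (2.34-fold). In iWAT the order of Elovl3 was that of Ucp1 save for ko replicates 2 and 3, which were exchanged: Ucp1 stood at 55.3 CPM in wt replicate 2, 18.5 CPM in ko replicate 3, 16.5 CPM in ko replicate 2, 3.21 CPM in ko replicate 1, 2.70 CPM in wt replicate 1 and 0.0989 CPM in wt replicate 3. After subtraction of depot means r was 0.623 between Elovl3 and Ucp1 and 0.787 between Elovl3 and Dio2, the deiodinase of brown fat. In iBAT the wt and ko libraries with the same replicate number lay next to each other for Elovl3 and Elovl6, as they did for 17.1% of all genes tested; the labels do not say what a number marks.

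**Figure D5:**
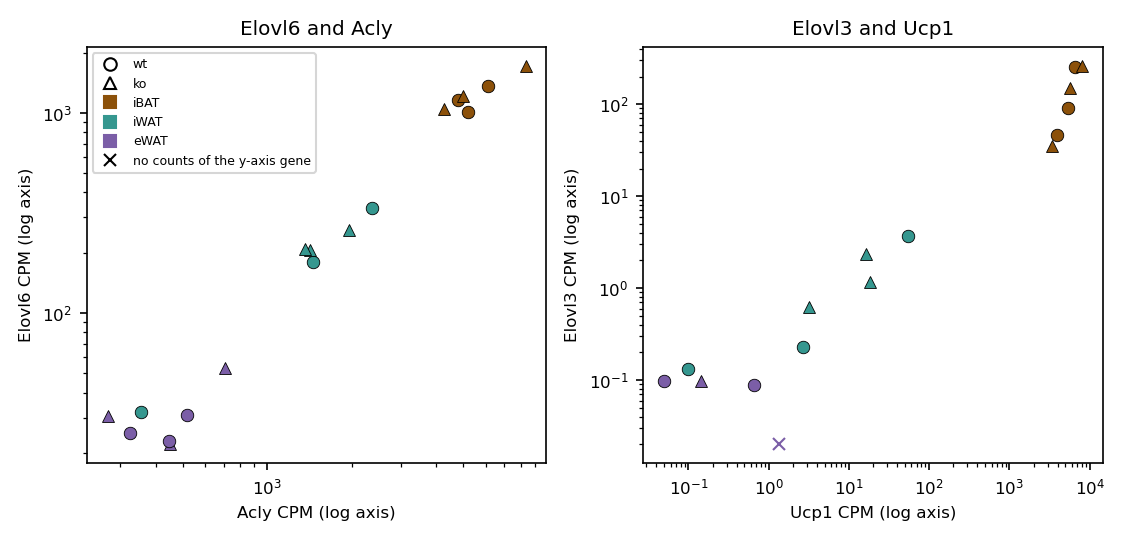
CPM of Elovl6 against Acly and of Elovl3 against Ucp1 on log axes, 1 point per library, coloured by depot, with circles for wt and triangles for ko; a library with no Elovl3 count is a cross at the bottom, and eWAT libraries with no Ucp1 count are not drawn in the right panel. The iBAT points lie apart from all others on both axes, iWAT wt replicate 3 lies among the eWAT points for Elovl6 and Acly and within their range of Ucp1, and the iBAT and iWAT points of Elovl3 climb with Ucp1.

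Between ko and wt no member passed the test in any depot. For Elovl6 the iBAT means of wt and ko were 1178 ± 175 and 1323 ± 350 CPM, the iWAT means 182 ± 151 and 224 ± 29.8 CPM, and the eWAT means 26.3 ± 4.06 and 35.1 ± 15.9 CPM (SD, n = 3 each), and the ranges of the genotypes overlapped in every depot. The fitted log2 fold change of ko over wt across depots was 0.30 ± 0.29 for Elovl6, 0.10 ± 0.59 for Elovl3, -0.05 ± 0.12 for Elovl5, -0.03 ± 0.08 for Elovl1, 0.04 ± 0.57 for Elovl7 and -0.17 ± 0.47 for Elovl4 (SE; edgeR's adjusted p = 0.9999 for each). Within iBAT it was 0.19 ± 0.84 for Elovl3 and 0.00 ± 0.14 for Elovl1, so that the spread between mice leaves the former far less certain than the latter. The furthest value within a depot was that of Elovl4 in iWAT, -0.62 ± 0.85, on 2 to 11 counts per library. None of the 30 tests of members (6 members, each depot, all depots together, and the difference of the effect between depots) was under 0.05 before adjustment by edgeR, DESeq2 or limma voom, and 0 were called by each. Over all genes tested, 0.00534% were called for ko against wt across depots, 0% in iBAT, 0% in iWAT, 0.00534% in eWAT and 0% for a difference between depots. The deleted gene Gm15551 was thus itself not called in iBAT or iWAT. It had 40 to 68 counts in wt iBAT and 59 to 316 in wt iWAT, against 0 or 1 in the ko libraries of these depots. The tests within these depots therefore missed a gene lost in ko, which limits what they show for the members. A p that misses the threshold does not show that the genotypes have equal levels. The fit across depots had no term for the mouse, although each mouse gave 3 libraries. Its standard errors therefore do not give the uncertainty of 3 mice per genotype.

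Some member values may include reads of overlapping genes. Exons of Elovl1 overlap those of Cdc20, exons of Elovl3 those of Pitx3, and exons of Elovl6 those of the antisense gene Gm35986, each on the opposite strand, and the sources used here do not state whether strand was used in the quantification. Gm35986 reached 5.86 CPM at most, against 1045 CPM of Elovl6 in that library, Pitx3 2.66 CPM at most, against 252 CPM of Elovl3 in that library, and Cdc20 7.88 CPM at most, against 36.7 CPM of Elovl1 in that library. In eWAT, however, Pitx3 had 5, 1 and 0 counts in wt and 2, 1 and 0 in ko, against 12 counts of Elovl3 in all, and in eWAT wt replicate 1 its 5 counts exceeded the 2 of Elovl3. The part of Pitx3 reads in the eWAT level of Elovl3, and so in its ratios to eWAT, was not tested.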

How the data were processed

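RNA labelled as polyA was sequenced as paired ends from iBAT, iWAT and eWAT of 6 mice. Per the labels and the methods, the authors used bcl2fastq, cutadapt and Salmon with GENCODE M22 (GRCm38). Tool versions are not given in the sources used here. The authors deposited estimated counts per gene, not normalized. Those were used as deposited, filtered by expression, scaled by TMM and tested with edgeR 4.0.16 in R 4.3.3 (quasi-likelihood, 18728 genes, all 6 groups, Benjamini-Hochberg adjustment, threshold 0.05). Fold changes are on the log2 scale. The standard error of a fold change was taken as its size divided by the square root of the test's F statistic, and is approximate. The script was tested on simulated data. Positions come from GENCODE M21 on the same build.

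Mouse identifiers in the labels pair the 3 depots of a mouse, and deviations from group means correlated from -0.165 to 0.326 between them. The fit had no block, and the mouse block was an alternative, as were DESeq2 1.42.0, limma 3.58.1, other scalings and filters, wt libraries alone and left-out libraries. The removal of both epididymis-bearing eWAT libraries was chosen after seeing the data. Named genes were the members, the listed pathway and marker genes, and the 3 genes nearest to each tested member by r (log2 CPM, prior count 2). Overlapping genes were added for the results they touch. The members and lists were chosen with earlier results of these data known.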

Additional observations from a re-analysis of the deposited data

Results flagged for a closer look

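Each of the 7 members was examined in each depot, 21 sets of 6 libraries, for a library far from the other 5 by Dixon's test at the 95% level, which chance passes in about 1 in 20 sets. There were 4 such values, all in eWAT and in 2 libraries. In eWAT ko replicate 3, Elovl2 was high at 19.2 CPM (388 counts), Elovl5 was low at 50.1 CPM, and Elovl3 was low at 0 CPM, a difference of a few counts from the other libraries. That library held the most epididymis RNA, whose part in these values was not tested. In eWAT ko replicate 1, Elovl6 was high at 52.9 CPM (1232 counts), and Acly (706 CPM), Fasn (7886 CPM) and Acaca (605 CPM) were also at their highest of the 6 eWAT libraries there.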

How the results depend on the processing

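The calls of Elovl1, Elovl3, Elovl5 and Elovl6 for iBAT against either white depot held in every alternative run in which the gene was tested, and of 617 values of a member under an alternative, 0 reversed a call. Elovl5 for iWAT against eWAT had another call in 26 settings and Elovl7 in 26 over its comparisons. With at least 10 counts in every library 3 members were called for iBAT against iWAT and 3 against eWAT, as fewer were tested. For iWAT against eWAT limma voom called 1 member and wt libraries alone 0. Leaving out a mouse or a library gave 4 to 6, 4 to 7 and 1 to 4 members in the 3 comparisons, beside about 8717 to 11120, 8965 to 10870 and 750 to 2117 of all genes. With all libraries 54.3%, 54.6% and 10.2% of all genes were called. Without the filter on low counts, Elovl2 had a log2 fold change of -5.88 for iWAT against eWAT (edgeR's adjusted p = 0.034), and -3.07 (adjusted p = 0.194) without the 4 libraries holding other tissue.

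Over all genes, wt libraries alone gave 6595 calls for iBAT against iWAT, 6574 for iBAT against eWAT and 247 for iWAT against eWAT, with fewer samples. For the last, 1149 were called with at least 10 counts in every library, 854 with only the depots compared, and 750 (without mouse ko replicate 2) to 2117 (without iWAT wt replicate 1) when a mouse or library was left out. For ko against wt across depots the 1 call became 0 with at least 10 counts or with counts summed per mouse, and 4 by DESeq2. In iBAT DESeq2 called 13, and removal of the 4 libraries 1. In iWAT no filter gave 1, DESeq2 4 and removal of the 4 libraries 11. In eWAT DESeq2 called 13, while limma voom, at least 10 counts, and removal of both epididymis-bearing libraries gave 0. Left-out mice or libraries gave 0 to 1 in each depot. For a genotype effect differing between depots, removal of the 4 libraries gave 2. The cause of these changes was not tested. No member was called for genotype in any of 166 settings.

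With the mouse as a replicate block 5, 4 and 3 members were called, beside 54.3%, 54.6% and 10.2% of all genes in the fit without a block. Elovl7 was lost for iBAT against eWAT, and for iWAT against eWAT Elovl5 was lost and Elovl1 gained, with no other change of a member's call. Among the pathway lists the block changed the calls for iWAT against eWAT, to 1 of 8 desaturases (from 2) and 1 of 7 peroxisomal genes (from 0). Without a block 10.2% of all genes were called there. Among the marker lists the block removed all 10 lymph node calls for that comparison, along with those of Tnnc2, Tnnt3 and Tnp2, gained Dio2, and changed Acta1, Cd79a and Mylpf in comparisons with iBAT. Wt and ko libraries with the same number share only a number (correlations of deviations from -0.465 to 0.551), and a number block gave 3 calls across depots and 0 in eWAT. Per length of the longest transcript, the Elovl1 share was 2.125% in iBAT and 39.54% in eWAT. Elovl2, Elovl4, Elovl7 and white fat Elovl3 rest on few counts, which limits what could be detected.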
